A study of Mus musculus with 15 samples.

Results

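The enzymes and carriers that make, export and break down sphingosine-1-phosphate (S1p) and lysophosphatidic acid (LPA) were followed in RNA sequencing of the mouse embryonic pancreas. The set held 10 genes of the 25292 in the count table: the sphingosine kinases Sphk1 and Sphk2, the S1p lyase Sgpl1, the S1p phosphatases Sgpp1 and Sgpp2, the S1p exporters Spns2 and Mfsd2b, the ecto-phosphatases Plpp1 and Plpp3, and Enpp2, which encodes autotaxin. They were chosen by name, and each was found once through its Ensembl identifier. There were 15 libraries in 5 groups of 3, all from mice of the strain C57/Bl6J. Pancreata of wild-type (wt) embryos and of embryos labelled S1pr2 null were collected fresh at 14.5 days post coitum (dpc). The null allele, by the methods of the study, is an insertion of a Neo cassette that interrupts exon 1 in the germline, and S1pr2 is a receptor for S1p. Wild-type explants of the same stage, dorsal buds by the same methods, were cultured for 2 days without serum on filters at the boundary of medium and air (air-liquid interface, ALI). They grew in standard medium (control), with 15 μM of the S1pr2 antagonist JTE013 (JTE), or with 15 μM JTE013 and 50 ng/ml of the matricellular protein CTGF (JTE with CTGF). Each library was a pool of organs or explants, so no value belongs to a single embryo, and all cell types of the organ were measured together.

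S1p is made inside cells when a sphingosine kinase phosphorylates sphingosine, and it reaches its receptors on the cell surface only after export by a carrier such as Spns2 or Mfsd2b. Its level is held down by the lyase, which cleaves it irreversibly, and by phosphatases that turn it back into sphingosine. LPA, a related lipid with receptors of its own, is made largely outside the cell by secreted autotaxin. The phosphatases Plpp1 and Plpp3 face the outside of the cell and remove the phosphate from both lipids.

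Libraries held 11402804 to 13828737 reads assigned to genes, and 16245 genes had enough reads to be tested. The libraries of each group differed by more than sampling noise, most of all JTE 3 from JTE 1 and from JTE 2. S1pr2 itself, examined as a check of the genotype labels, was the more abundant in the libraries with the null label, at a log2 fold change from wt of 0.83 ± 0.07 (SE, adjusted p = 4.50e-07 by edgeR). The allele is an insertion, and a count per gene tells neither from which exons the reads came nor whether the transcripts can encode the receptor, so that this level does not settle the label. The directions of the genotype comparison and of the interaction below rest on this label. All 8 markers of pancreatic epithelium and all 7 of mesenchyme had reads in every group. A normalised read count here is a count divided by the effective size of its library relative to the mean, and it compares libraries for 1 gene. Genes were compared with each other only in TPM, the transcript share of a library corrected for gene length.

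By TPM, Plpp3 was the most abundant transcript of the set in fresh pancreata, at 69.6 ± 3.04 TPM (SD, n = 3) in wt. In wt it was followed by Enpp2 (48.5 ± 4.68 TPM), Sphk2 (42.8 ± 2.37 TPM), Sgpl1 (40.2 ± 3.03 TPM), Sgpp1 (36.1 ± 1.1 TPM), Plpp1 (35.5 ± 1.68 TPM) and Sphk1 (29.9 ± 0.852 TPM). Sgpp2 (17.01 ± 0.381 TPM) and Spns2 (16.1 ± 0.47 TPM) lay lower, and Mfsd2b was last at 1.22 ± 0.115 TPM. In wt the libraries of Sphk2 and Sgpl1, of Sgpl1 and Sgpp1, and of Sgpp1 and Plpp1 overlapped in TPM, so the order within these neighbours was not resolved. The libraries of Enpp2 did not overlap with those of Plpp3 above it, and lay only just above those of Sphk2.

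The order differed in culture. Enpp2 stood first in all 3 explant groups, at 73.7 ± 7.83 TPM in control, 96.9 ± 19.9 TPM in JTE and 75.6 ± 6.91 TPM in JTE with CTGF. Sgpl1 was next by its mean in each of them, and in no explant group did its libraries overlap with those of Enpp2. Second place was not resolved. The libraries of Sgpl1 overlapped with those of Plpp1 and Plpp3 in control and of Plpp3 and Sphk2 in JTE. In JTE with CTGF they overlapped with those of Plpp1 and Sphk2. Spns2 and Mfsd2b, the exporters, held the last places in wt and in all 3 explant groups, while in the libraries labelled S1pr2 null Sgpp2 lay below Spns2 with overlapping libraries. Scaling reads per kilobase by the effective library size instead gave the same order in every group. Both scales divide the same counts by gene length, so within a library they order the genes alike by design. The agreement is therefore no separate check.

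**Figure D1:**
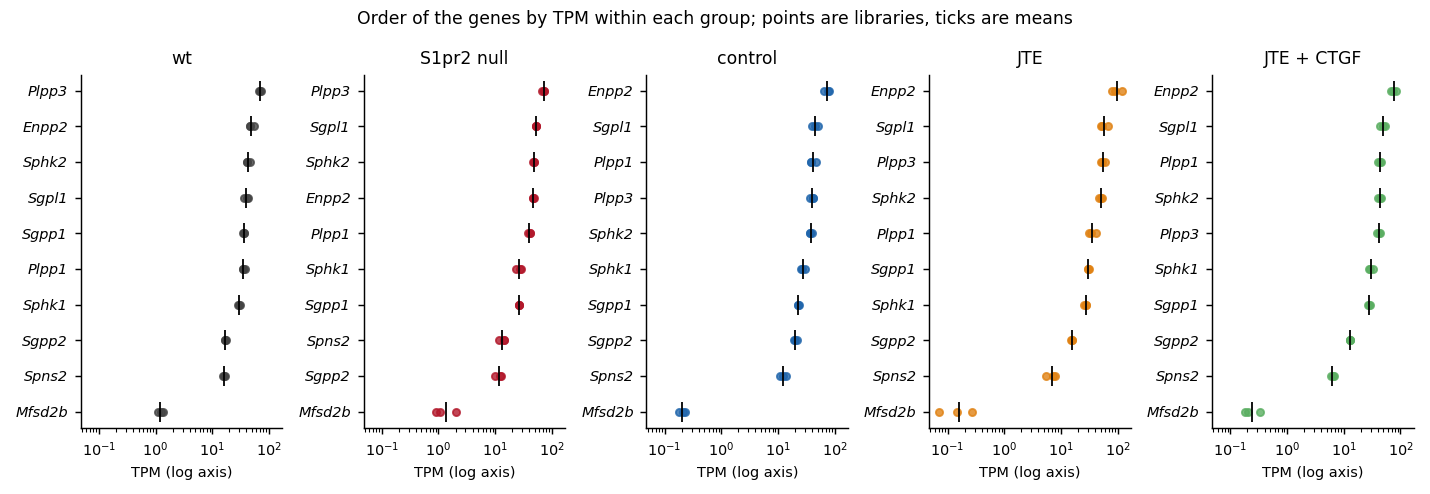
Order of the 10 genes in each group by TPM on a log axis, where points are the 3 libraries and black ticks are group means. Plpp3 stands at the top in wt and in the libraries labelled S1pr2 null, Enpp2 at the top in the 3 explant groups, and Mfsd2b at the bottom everywhere.

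The kinases come first in the pathway. Sphk1 (ENSMUSG00000061878, chr11:116530925-116536674, plus strand in mm10) had normalised read counts of 593, 655 and 617 in wt and 568, 574 and 468 in the libraries labelled S1pr2 null. In explants it had 754, 681 and 746 in control, 748, 794 and 642 in JTE and 957, 830.2 and 919 in JTE with CTGF. All 3 libraries labelled S1pr2 null lay below all wt libraries, the control and JTE libraries overlapped, and the libraries with CTGF lay above all others. Sphk1 rose with JTE and CTGF against control by 0.31 ± 0.09 (SE, adjusted p = 0.00509 by edgeR) on the log2 scale and against JTE by 0.31 ± 0.09 (SE, adjusted p = 0.0121 by edgeR). JTE alone gave a log2 fold change of 0.00 ± 0.09 (SE, adjusted p = 0.991 by edgeR) against control. The genotype gave −0.21 ± 0.09 (SE, adjusted p = 0.0878 by edgeR). This last value passed the threshold without JTE 3 (edgeR adjusted p = 0.0408) and in a fit of the 6 libraries alone (edgeR adjusted p = 0.0457).

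Sphk2 (ENSMUSG00000057342, chr7:45709467-45718002, minus strand), the kinase found in the nucleus and mitochondria as well as the cytosol, behaved differently. Its normalised read counts were 742, 764 and 817 in wt and 872, 845 and 810.1 in the libraries labelled S1pr2 null. They were 884, 854 and 874 in control, 1237, 1251 and 1034 in JTE and 1133, 1139 and 1122 in JTE with CTGF. The fresh groups overlapped, and all 6 libraries with JTE lay above all 9 others. Sphk2 rose with JTE by 0.43 ± 0.06 (SE, adjusted p = 3.13e-05 by edgeR) and with JTE and CTGF by 0.38 ± 0.07 (SE, adjusted p = 8.84e-05 by edgeR) on the log2 scale, both against control. JTE with CTGF and JTE differed by −0.05 ± 0.06 (SE, adjusted p = 0.586 by edgeR), which did not pass. Of the exon bases of Sphk2, 20.8% overlap Rpl18 and Dbp on the opposite strand, and since the use of the strand in counting is not given, these genes may share reads. In JTE against control Rpl18 changed by 0.34 ± 0.07 (SE, adjusted p = 6.48e-04 by edgeR) and Dbp by 0.76 ± 0.12 (SE, adjusted p = 4.05e-05 by edgeR), in the same direction as Sphk2, and their part in its rise was not tested.

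The lyase Sgpl1 (ENSMUSG00000020097, chr10:61098642-61147703, minus strand), which cleaves S1p for good, rose in each comparison with an untreated or wild-type group. Normalised read counts were 1125, 1010.5 and 1083 in wt and 1358, 1345 and 1312 in the libraries labelled S1pr2 null. They were 1467, 1542 and 1609 in control, 1861, 1869 and 2180.1 in JTE and 2033, 1896 and 1809.9 in JTE with CTGF. Every library labelled S1pr2 null lay above wt and every library with JTE above control, while JTE and JTE with CTGF lay over the same range. The log2 fold change was 0.32 ± 0.07 (SE, adjusted p = 0.00205 by edgeR) for the genotype, 0.36 ± 0.07 (SE, adjusted p = 2.18e-04 by edgeR) for JTE and 0.31 ± 0.07 (SE, adjusted p = 5.44e-04 by edgeR) for JTE with CTGF against control. Library JTE 3 was the highest, and without it the JTE value was 0.28 and still passed.

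Sgpp1 and Sgpp2, the phosphatases of the endoplasmic reticulum that return S1p to sphingosine, moved together in one comparison and apart in others. Sgpp1 (ENSMUSG00000021054, chr12:75714248-75735729, minus strand) had normalised read counts of 496, 540.2 and 531 in wt and 375, 364 and 362 in the libraries labelled S1pr2 null. It had 444, 413 and 405 in control, 568, 588 and 546 in JTE and 596, 583 and 589.9 in JTE with CTGF. The libraries labelled S1pr2 null lay well below wt, and all 6 libraries with JTE lay well above control. Sgpp1 fell with the genotype, with a log2 fold change of −0.51 ± 0.06 (SE, adjusted p = 9.35e-06 by edgeR), and rose with JTE by 0.43 ± 0.06 (SE, adjusted p = 9.25e-06 by edgeR) and with JTE and CTGF by 0.49 ± 0.06 (SE, adjusted p = 1.74e-06 by edgeR).

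Sgpp2 (ENSMUSG00000032908, chr1:78310346-78420286, plus strand) had normalised read counts of 296, 306 and 286 in wt and 169.8, 209 and 204 in the libraries labelled S1pr2 null. It had 509.6, 432 and 411 in control, 341, 373 and 328 in JTE and 313, 316 and 343 in JTE with CTGF. Every library labelled S1pr2 null lay below wt, and every library with JTE lay below control. Sgpp2 fell with the genotype, with a log2 fold change of −0.61 ± 0.10 (SE, adjusted p = 2.30e-04 by edgeR), with JTE (−0.38 ± 0.09 (SE, adjusted p = 0.00181 by edgeR)) and with JTE and CTGF (−0.48 ± 0.09 (SE, adjusted p = 2.32e-04 by edgeR)). Library control 1 was the highest, and without it the JTE value was −0.28 (edgeR adjusted p = 0.0155). Of the exon bases of Sgpp2, 6.6% overlap Farsb on the opposite strand, and Farsb rose with JTE by 0.43 ± 0.06 (SE, adjusted p = 7.81e-06 by edgeR), in the direction opposite to Sgpp2.

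Because the phosphatase genes moved in opposite directions with JTE, their promoters are shown, from RefSeq on GRCm38.p6, which has the coordinates of mm10. Each window holds the 250 bases before and the 50 after the RefSeq start, read 5′ to 3′ on the strand of the gene, and in both that start is also the 5′ end of the gene in the count table. Both strands were searched for the TATA box, spelled TATAAA, for the CCAAT box as its name spells it, for the GC box, spelled GGGCGG, for a TEAD element, spelled GGAATG, and for an AP-1 element, spelled TGANTCA. Capitals mark the matches, which did not overlap each other.
Sgpp1, chr12:75735680-75735979, minus strand: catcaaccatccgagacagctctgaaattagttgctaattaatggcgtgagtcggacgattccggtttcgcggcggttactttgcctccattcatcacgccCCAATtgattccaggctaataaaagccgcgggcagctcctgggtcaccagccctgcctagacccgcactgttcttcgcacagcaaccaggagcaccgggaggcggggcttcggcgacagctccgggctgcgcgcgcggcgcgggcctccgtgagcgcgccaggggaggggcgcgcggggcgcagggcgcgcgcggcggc
Sgpp2, chr1:78310096-78310395, plus strand: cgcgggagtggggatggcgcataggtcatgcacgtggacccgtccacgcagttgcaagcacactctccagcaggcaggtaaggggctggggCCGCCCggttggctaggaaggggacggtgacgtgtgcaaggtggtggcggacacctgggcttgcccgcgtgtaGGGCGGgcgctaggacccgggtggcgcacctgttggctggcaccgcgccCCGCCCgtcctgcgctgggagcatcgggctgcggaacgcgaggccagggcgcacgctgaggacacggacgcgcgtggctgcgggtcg
Sgpp1 held 1 CCAAT box and no GC box, and Sgpp2 held 3 GC boxes and no CCAAT box. Neither held any of the other motifs. Of all 32851 RefSeq promoter windows of this length, 37.4% hold a CCAAT box, 35.7% a GC box, 13.6% the TATA box, 14.7% the TEAD element and 7.8% the AP-1 element. A match describes letters only. Promoter windows were found for 8 of the 10 genes, 13 windows in all. The RefSeq start of Spns2 lies 14877 bases inside the gene as counted, and its window is not printed.

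The exporters were among the least abundant genes of the set. Spns2 (ENSMUSG00000040447, chr11:72451638-72489904, minus strand), the S1p carrier known from endothelium, had normalised read counts of 289, 284 and 285 in wt and 203, 243 and 239 in the libraries labelled S1pr2 null. It had 261, 281 and 292 in control, 169, 189 and 114 in JTE and 159, 151 and 180.0 in JTE with CTGF. All 6 libraries with JTE lay below all 9 others, JTE 3 lowest of all. Spns2 fell with JTE by a log2 fold change of −0.83 ± 0.13 (SE, adjusted p = 6.52e-05 by edgeR) and with JTE and CTGF by −0.77 ± 0.14 (SE, adjusted p = 1.08e-04 by edgeR). Without JTE 3 the JTE value was −0.64 and still passed.

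The genotype comparison of Spns2 lay near the threshold, at −0.32 ± 0.13 (SE, adjusted p = 0.067 by edgeR), with no overlap between the groups. It passed without JTE 2 (edgeR adjusted p = 0.0437), without JTE 3 (edgeR adjusted p = 0.00925), with no filter on low counts (edgeR adjusted p = 0.0414) and in the fit of the 6 libraries alone (edgeR adjusted p = 0.0102). Of the 7 endothelial markers, 5 fell and 0 rose with JTE, and their summed normalised count ranged from 6277 to 7595 in control and from 4851 to 5454 in JTE. In the fresh groups 2 of the 7 were higher and 0 lower in the libraries labelled S1pr2 null. In such bulk tissue fewer cells of a type and less RNA per cell cannot be told apart, and the part of the endothelial change in the Spns2 result was not tested. Mybbp1a, which overlaps 3.2% of the exon bases of Spns2 on the other strand, rose with JTE by 0.32 ± 0.06 (SE, adjusted p = 1.77e-04 by edgeR).

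Mfsd2b (ENSMUSG00000037336, chr12:4862440-4874359, minus strand), the S1p carrier of red cells and platelets, was close to the limit of detection in explants. It had raw counts of 27, 32 and 29 reads in wt, 20, 47 and 27 in the libraries labelled S1pr2 null, 6, 5 and 6 in control, 4, 8 and 2 in JTE and 9, 5 and 6 in JTE with CTGF. Every fresh library lay above every explant library, and the explant groups overlapped. It passed the filter on low counts only through the fresh groups, where it was higher. No test of the fresh groups against the explants is therefore given for it. All 10 erythroid markers were lower in control than in wt, with a summed normalised count of 13186 to 15416 in wt and of 213 to 467 in control. Of the 6 platelet and megakaryocyte markers 4 were tested, of which 3 were lower in control. Their sum ranged from 211 to 271 in wt and from 50.3 to 81.8 in control. The part of blood cells in the Mfsd2b levels was not tested. Differences between the explant groups were not detectable at this depth.

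The ecto-phosphatases moved in opposite directions in 3 comparisons. Plpp1 (ENSMUSG00000021759, chr13:112800894-112867881, plus strand) had normalised read counts of 262, 253 and 243 in wt and 285, 259 and 280.1 in the libraries labelled S1pr2 null. It had 376, 349 and 393 in control, 317, 308 and 349 in JTE and 455, 436 and 444 in JTE with CTGF. The libraries with CTGF lay above all others, and those of JTE met the lower edge of control without overlap. Plpp1 rose with CTGF added to JTE by 0.45 ± 0.07 (SE, adjusted p = 1.38e-04 by edgeR) on the log2 scale and against control by 0.26 ± 0.07 (SE, adjusted p = 0.00407 by edgeR).

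JTE alone gave Plpp1 a log2 fold change of −0.20 ± 0.07 (SE, adjusted p = 0.028 by edgeR) against control, a call that rested on single libraries. It was lost without control 1 (edgeR adjusted p = 0.0709), control 3 (0.118), JTE 1 (0.0827) or JTE 2 (0.114), and with DESeq2 (DESeq2 adjusted p = 0.0541). Mtrex overlaps 6.2% of the exon bases of Plpp1 on the other strand and shares 23.1% of its 50-base words. Mtrex changed by 0.08 ± 0.05 (SE, adjusted p = 0.234 by edgeR) with JTE, which did not pass.

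Plpp3 (ENSMUSG00000028517, chr4:105157347-105232764, plus strand) had normalised read counts of 983, 979.8 and 909 in wt and 996, 872 and 964 in the libraries labelled S1pr2 null. It had 687, 729.9 and 688 in control, 950.1, 968 and 985 in JTE and 734, 854 and 873 in JTE with CTGF. Control held the lowest libraries, the fresh groups and JTE lay over one range, and JTE with CTGF lay between control and JTE. Plpp3 rose with JTE by 0.46 ± 0.07 (SE, adjusted p = 2.12e-05 by edgeR) against control on the log2 scale. With JTE and CTGF it was higher than in control by 0.22 ± 0.07 (SE, adjusted p = 0.00886 by edgeR), a call that did not hold without JTE with CTGF 3 (edgeR adjusted p = 0.0508). It fell when CTGF was added to JTE, by −0.24 ± 0.07 (SE, adjusted p = 0.012 by edgeR), a call that did not hold without JTE 3 (edgeR adjusted p = 0.0723) or JTE with CTGF 1 (0.061).

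Enpp2 (ENSMUSG00000022425, chr15:54838898-54920146, minus strand), the secreted enzyme that makes LPA from lysophosphatidylcholine, had normalised read counts of 801, 707 and 691 in wt and 679, 681 and 699 in the libraries labelled S1pr2 null. It had 1635, 1473 and 1178 in control, 1794, 1641 and 2149 in JTE and 1470.4, 1784 and 1722 in JTE with CTGF. All 9 explant libraries lay above all 6 fresh ones. Enpp2 rose with JTE by 0.38 ± 0.11 (SE, adjusted p = 0.0069 by edgeR) against control, and the libraries of these groups met without overlap. Without control 1 this value was 0.49, and without control 3 it was 0.26. JTE with CTGF gave 0.22 ± 0.11 (SE, adjusted p = 0.0976 by edgeR), which passed without control 1 (edgeR adjusted p = 0.0216), JTE 3 (0.0268) or JTE with CTGF 1 (0.0397). Of the 50-base words of Enpp2, 5.1% also occur in Gm26684.

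**Figure D2:**
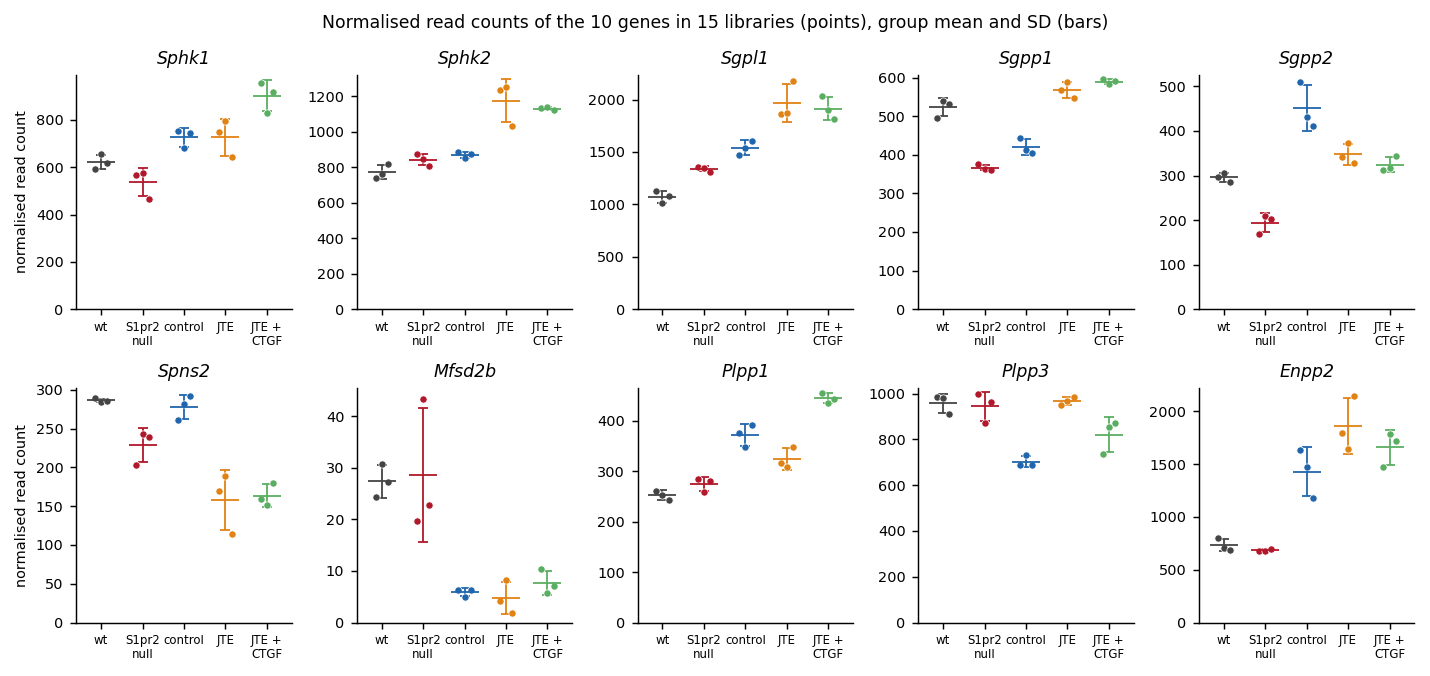
Normalised read counts of the 10 genes, each on its own axis from 0, in 15 libraries (points), with the group mean and SD. Spns2 is lowest in the 6 libraries with JTE, Sgpp1 is low in the libraries labelled S1pr2 null and in control, and Enpp2 is high in all 9 explant libraries.

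The comparison of genotypes asked which of these genes differ where the receptor gene is disrupted. Of the 10 genes, 1 rose (Sgpl1) and 2 fell (Sgpp1 and Sgpp2) at an edgeR adjusted p below 0.05, against 25.8% of all genes tested, 12.6% higher and 13.3% lower. The libraries of the groups did not overlap for 5 genes, Sphk1 and Spns2 in addition, against 46.3% of all genes. The median log2 fold change was −0.06 over the 10 genes and −0.01 over all genes. None met the criterion of the study (protein-coding, over 100 normalised reads in at least 1 group, changed to under 0.6 or over 1.6 times, at a 0.1 limit on the adjusted p), which 3% of all genes met. The count of calls was 5 without JTE 3, a library of neither group.

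Among markers, 5 of 8 pancreatic epithelial genes were lower and 0 higher in the libraries labelled S1pr2 null, with a summed normalised count of 20755 to 21825 against 25992 to 29412 in wt. The part of this in the falls of Sgpp1 and Sgpp2 was not tested. Of the 7 mesenchymal markers 3 were higher and 3 lower, and of the 10 erythroid ones 2 and 3. Of the 6 smooth muscle and pericyte markers 1 was higher and 1 lower, and of the 6 macrophage and leukocyte ones 0 and 1. The part of these markers in the changes of the 10 genes was not tested either. Of the 11 S1p and LPA receptor genes 8 were tested, and 4 were higher and 0 lower, S1pr2 among them, with Lpar1 at 0.91 ± 0.12 and S1pr3 at 0.48 ± 0.09 (log2 fold change ± SE). Of 17 neighbours of sphingosine and S1p metabolism 14 were tested, and 4 rose and 2 fell, among them the ceramide kinase Cerk at 0.50 ± 0.09 and the acid ceramidase Asah1 at −0.38 ± 0.06. Of 20 neighbours of LPA metabolism 17 were tested, and 1 rose and 5 fell, with Plppr3 at 0.73 ± 0.10 and the phospholipase Pla1a at −0.60 ± 0.10.

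Explants in standard medium were set against fresh wt pancreas to describe the untreated culture with which the antagonist was compared. Mfsd2b, which was tested only through its level in the fresh groups, was left out of the counts. Of the other 9 genes, 6 were higher and 2 lower in control, against 57.8% of all genes called, 28.5% higher and 29.3% lower, and Spns2 was the one that did not pass. The libraries did not overlap for 8 of the 9, against 63.8% of all genes. Enpp2 rose most, by 0.96 ± 0.11 (SE, adjusted p = 1.60e-06 by edgeR) on the log2 scale, and was the 1 gene of the set to meet the criterion of the study, against 12.1% of all genes. Its mean normalised count was 733 ± 59.7 (SD, n = 3) in wt and 1429 ± 232 (SD, n = 3) in control.

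Sgpp2 (0.61 ± 0.09 (SE, adjusted p = 1.93e-05 by edgeR)), Plpp1 (0.56 ± 0.07 (SE, adjusted p = 4.35e-06 by edgeR)) and Sgpl1 (0.52 ± 0.07 (SE, adjusted p = 4.12e-06 by edgeR)) also rose in culture. Plpp3 (−0.45 ± 0.07 (SE, adjusted p = 2.14e-05 by edgeR)) and Sgpp1 (−0.31 ± 0.06 (SE, adjusted p = 1.85e-04 by edgeR)) fell. Both pairs of phosphatases thus moved in opposite directions in culture, Sgpp2 and Plpp1 upwards and Sgpp1 and Plpp3 downwards.

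Markers of other cell types also differed between fresh and cultured tissue, beside the erythroid and platelet genes given above. Of the 6 macrophage and leukocyte markers 5 were higher in control, with a summed normalised count of 1546 to 1555 in wt and of 3115 to 3376 in control. Of the 4 mesothelial markers 3 were lower and 1 higher, with sums of 1981 to 2059 in wt and of 643 to 938 in control. Of the 8 pancreatic epithelial markers 3 were higher and 1 lower, of the 7 mesenchymal ones 4 and 1, of the 6 smooth muscle and pericyte ones 3 and 1, and of the 7 endothelial ones 3 and 3. Their part in the changes of the 9 genes was not tested.

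The kinase values in this comparison were small and depended on the scaling. Sphk1 was at 0.22 ± 0.09 (SE, adjusted p = 0.0374 by edgeR) and Sphk2 at 0.17 ± 0.07 (SE, adjusted p = 0.0365 by edgeR), but as ratios of mean TPM they were −0.125 and −0.182 on the log2 scale, while the median of all genes was −0.37 on that scale. With total counts in place of TMM factors, where the median of all genes was −0.17, the edgeR adjusted p was 0.403 and 0.73. The call of Sphk1 was lost without wt 1, wt 3, control 1 or control 3 (edgeR adjusted p of 0.122, 0.0857, 0.107 and 0.0924). The call of Sphk2 was lost without wt 1, wt 2 or any of control 1 to 3 (edgeR adjusted p of 0.131, 0.0895, 0.0902, 0.0517 and 0.0729). Time, culture and the dorsal bud as starting tissue cannot be told apart here.

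The neighbours moved in both directions as well. Of the 8 receptors tested, 2 rose and 3 fell, with Lpar1 at −1.42 ± 0.14, S1pr3 at −1.12 ± 0.10 and S1pr1 at 0.90 ± 0.10 (log2 fold change ± SE). Of the 14 sphingosine and S1p neighbours 8 rose and 3 fell, led by the lipid exporter Abca1 at 0.96 ± 0.08 and Cerk at 0.91 ± 0.08. Aldh3a2, which oxidises the aldehyde that the lyase releases, was at 0.53 ± 0.06. Of the 17 LPA neighbours 7 rose and 3 fell, with Gdpd1 at 0.62 ± 0.08 and the acylglycerol kinase Agk at −0.40 ± 0.12.

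The comparison of JTE with control asked which of these genes differ where the antagonist of S1pr2 is present. Of the 10 genes, 5 rose and 3 fell, against 52.2% of all genes called, 25.9% higher and 26.2% lower. The libraries did not overlap for 8 genes, against 56.7% of all genes. Sphk2, Sgpl1, Sgpp1, Plpp3 and Enpp2 rose, by at most 1.38-fold, and Spns2, Sgpp2 and Plpp1 fell. The median log2 fold change was 0.18 over the 10 genes and 0 over all genes. Spns2, at 0.564 of its control level in the fit, was the 1 gene to meet the criterion of the study, against 8.25% of all genes.

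Other cell types differed between these groups. All 6 macrophage and leukocyte markers were lower in JTE, with a summed normalised count of 1020 to 1182 against 3115 to 3376 in control. Of the 8 pancreatic epithelial markers 5 fell and 1 rose, with sums of 23742 to 30186 against 34010 to 39123. Their part in the changes of the 10 genes was not tested. Mesenchymal markers summed to 108980 to 132728 in JTE and to 104043 to 109948 in control, with 1 of 7 higher and 2 lower. Of the 6 smooth muscle and pericyte markers 4 were lower and 1 higher, and of the 4 mesothelial ones 3 were lower.

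Of the 8 receptors tested with JTE, 0 rose and 3 fell: S1pr3 at −0.74 ± 0.11, S1pr1 at −0.56 ± 0.09 and Lpar6 at −0.32 ± 0.09 (log2 fold change ± SE). Of the 14 sphingosine and S1p neighbours 6 rose and 2 fell, with the ceramidases Asah2 at 0.65 ± 0.14 and Asah1 at 0.62 ± 0.06, which release sphingosine from ceramide. Cers2, a ceramide synthase, was at 0.52 ± 0.05, and Cerk was at −0.38 ± 0.08. Of the 17 LPA neighbours 8 rose and 4 fell, with Pla1a at −2.25 ± 0.12, Plppr2 at 0.82 ± 0.07 and Agpat1, which turns LPA into phosphatidic acid, at 0.51 ± 0.05.

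**Figure D3:**
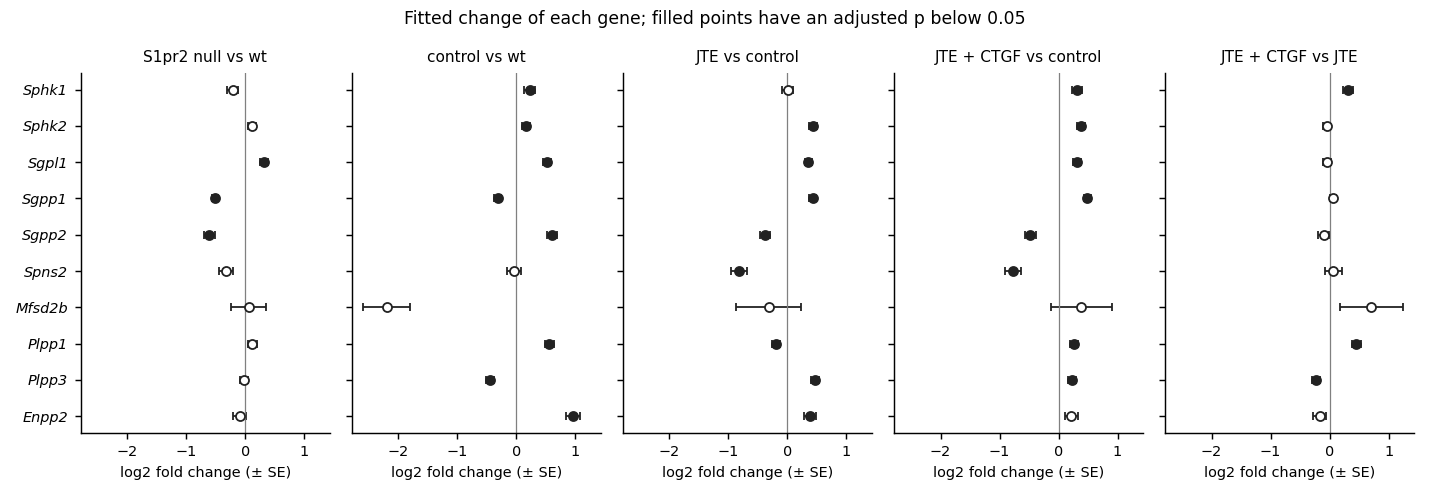
Log2 fold change of each gene with its SE in 5 comparisons, where filled points have an edgeR adjusted p below 0.05. Mfsd2b has an unfilled point in control against wt, where no test is given for it. Control enters 3 of the comparisons and JTE 2, so the panels are not independent, and the bars of Mfsd2b are wide because explant libraries held 2 to 9 of its reads.

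JTE with CTGF was set against the same control libraries. Of the 10 genes, 6 rose and 2 fell, against 61.1% of all genes called, 28.1% higher and 33% lower. The libraries did not overlap for 8 genes, against 64.8% of all genes, and the median log2 fold change was 0.28 over the 10 genes and −0.03 over all genes. Sphk1 and Plpp1, with a log2 fold change of 0.00 and −0.20 under JTE alone, stood at 0.31 and 0.26, while Enpp2 no longer passed. Spns2 was again the 1 gene to meet the criterion of the study, against 11.8% of all genes.

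The markers that differed from control with JTE and CTGF were as follows. All 6 macrophage and leukocyte markers were lower, with a summed normalised count of 806 to 1244 against 3115 to 3376 in control. Of the 8 pancreatic epithelial markers 5 were lower and 1 higher, with sums of 26495 to 28953 against 34010 to 39123. Of the 7 endothelial markers 5 were lower and 2 higher, with sums of 4641 to 5494 against 6277 to 7595. Of the 10 erythroid markers 6 were higher and 1 lower, with sums of 1342 to 2313 against 213 to 467. Of the 7 mesenchymal markers 1 was higher and 2 lower, and of the 5 Schwann and neural crest ones 1 and 1. Of the 4 platelet and megakaryocyte markers tested, 1 was higher and 0 lower. Of the 6 smooth muscle and pericyte markers 4 were lower and 1 higher, and of the 4 mesothelial ones 3 were lower. Their part in the changes of the 10 genes was not tested.

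The effect of CTGF itself was read from JTE with CTGF against JTE. Sphk1 and Plpp1 rose and Plpp3 fell, so that 3 of the 10 genes were called, against 30.4% of all genes, 13.6% higher and 16.8% lower. The libraries did not overlap for these 3 genes, against 40.2% of all genes. For Spns2 (0.06 ± 0.14 (SE, adjusted p = 0.8 by edgeR)), Sgpp1 (0.06 ± 0.06 (SE, adjusted p = 0.498 by edgeR)) and Sgpp2 (−0.10 ± 0.09 (SE, adjusted p = 0.46 by edgeR)) no difference passed. The count of calls was 2 without JTE 3 or without JTE with CTGF 1, where in both cases Plpp3 was lost. Without JTE with CTGF 1 Sphk1 was at the threshold (edgeR adjusted p = 0.04997). None of the 10 genes met the criterion of the study, against 1.74% of all genes.

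Among the neighbours, CTGF added to JTE gave rises in 2 receptors and a fall in 1, with Lpar6 at 0.37 ± 0.09, S1pr2 at 0.23 ± 0.07 and Lpar2 at −0.27 ± 0.07 (log2 fold change ± SE). Of the 14 sphingosine and S1p neighbours 3 rose and 4 fell. The carriers Abca1 (−0.62 ± 0.08) and Abcc1 (−0.41 ± 0.06), which can move S1p or other lipids out of cells, were among those that fell, as was Asah2 (−0.55 ± 0.14). Of the 17 LPA neighbours 5 rose and 0 fell, among them the phosphatases Plpp6 at 0.32 ± 0.07, Acp6 at 0.31 ± 0.09 and Plpp2 at 0.27 ± 0.06. Against control, JTE with CTGF gave 1 receptor higher and 3 lower, 4 sphingosine and S1p neighbours higher and 3 lower, and 8 LPA neighbours higher and 3 lower. Erythroid markers were higher with CTGF than with JTE for 5 of 10, with a summed normalised count of 1342 to 2313 against 238 to 615, while Mfsd2b was at 0.71 ± 0.54 (SE, adjusted p = 0.351 by edgeR).

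Blocking the receptor in culture and disrupting its gene in the embryo need not act alike, so the JTE response was tested against the genotype response with an interaction contrast, in which no library is shared. The responses differed for 6 of the 10 genes, against 42.9% of all genes tested, 21.5% in each direction. For 4 genes the JTE response was the higher one and for 2 the lower. Sgpp1 differed most, by 0.94 ± 0.08 (SE, adjusted p = 2.08e-07 by edgeR) on the log2 scale, since it fell with the genotype and rose with JTE. Every library labelled S1pr2 null lay below wt and every JTE library above control. Sgpp1 was also the 1 gene of the set to meet the criterion of the study on this contrast, against 11.5% of all genes. It kept its call in all 15 fits that left out 1 library, with values from 0.92 to 0.98.

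Plpp3 differed by 0.48 ± 0.09 (SE, adjusted p = 5.28e-04 by edgeR) and Sphk2 by 0.31 ± 0.09 (SE, adjusted p = 0.0119 by edgeR), and both kept their calls in these 15 fits. Rpl18, which overlaps exon bases of Sphk2, differed in the same direction, by 0.42 ± 0.10 (SE, adjusted p = 0.00263 by edgeR). Dbp, which also overlaps them, differed by −0.15 ± 0.17 (SE, adjusted p = 0.507 by edgeR), which did not pass. The part of these genes in the Sphk2 difference was not tested. Enpp2 differed by 0.48 ± 0.16 (SE, adjusted p = 0.0227 by edgeR), a call lost without wt 1, control 3 or JTE 3 (edgeR adjusted p of 0.0651, 0.0541 and 0.0515). Plpp1 differed by −0.31 ± 0.10 (SE, adjusted p = 0.0193 by edgeR), a call lost without wt 3, control 3 or JTE 2 (edgeR adjusted p of 0.0511, 0.054 and 0.0529). Spns2 differed by −0.50 ± 0.18 (SE, adjusted p = 0.0354 by edgeR), with the same sign in both responses. Its call was lost in 8 of the 15 fits, those without any wt library, without S1pr2 null 2 or 3, without control 2 or 3 and without JTE 3, where the value was −0.31. The count of calls was 3 without control 3 and 4 without wt 1 or wt 3.

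For Sgpl1 (0.04 ± 0.09 (SE, adjusted p = 0.773 by edgeR)) and Sgpp2 (0.23 ± 0.13 (SE, adjusted p = 0.171 by edgeR)) the difference did not pass. Sgpp2 passed without control 1 (edgeR adjusted p = 0.0462), and Sphk1, at 0.22 ± 0.12 (SE, adjusted p = 0.176 by edgeR), passed without JTE 3 (edgeR adjusted p = 0.0382). Of the 8 receptors, 6 differed, all with the lower value under JTE, S1pr3 by −1.22 ± 0.14 and Lpar1 by −0.70 ± 0.19. Of the 14 sphingosine and S1p neighbours 6 differed upwards and 3 downwards, led by Asah1 at 1.00 ± 0.08. Of the 17 LPA neighbours 7 differed upwards and 3 downwards, led by Pla1a at −1.65 ± 0.16. The fresh organ and the cultured bud are different settings for these responses, and setting and means of blocking the receptor cannot be told apart.

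**Figure D4:**
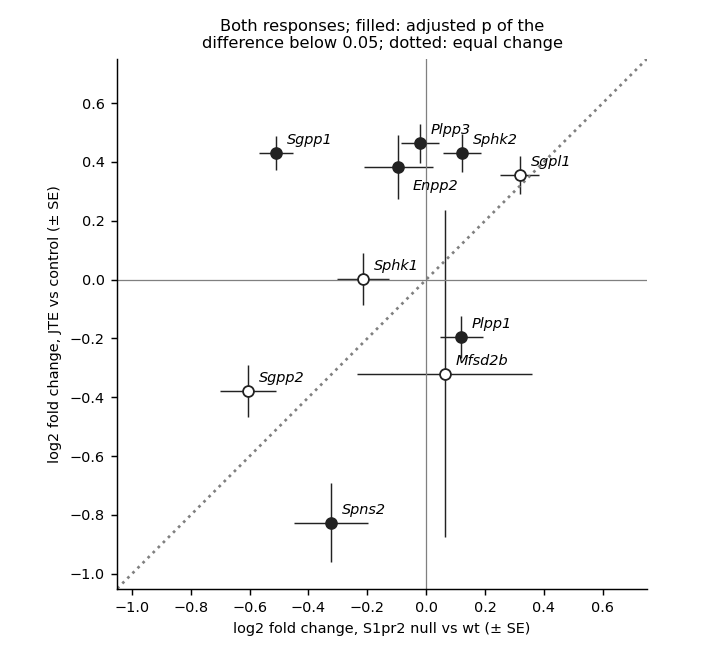
Log2 fold change of each gene with the genotype (horizontal) and with JTE (vertical), each with its SE, where filled points have an edgeR adjusted p below 0.05 for the difference and the dotted line marks equal change. Sgpp1 lies far above the line, Spns2 below it, and Sgpl1 almost on it.

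Shares within pairs of related genes were taken from TPM in each library, which removes the scaling between libraries, and are descriptions without a test. Sphk1 made up 41.2% ± 1.53 (SD, n = 3) of the kinase transcripts in wt and 35.6% ± 1.93 in the libraries labelled S1pr2 null. In explants its share was 42.1% ± 0.944 in control, 35.1% ± 0.557 in JTE and 41.0% ± 1.88 in JTE with CTGF. The share was lower in every library labelled S1pr2 null than in wt and in every JTE library than in control, and the libraries of JTE with CTGF overlapped with control. Dbp, which overlaps exon bases of Sphk2, was higher with the genotype by 0.90 ± 0.12 (SE, adjusted p = 3.98e-05 by edgeR) on the log2 scale. It was also higher than in control with JTE, as given above, and with JTE and CTGF by 1.19 ± 0.11 (SE, adjusted p = 1.54e-07 by edgeR). The part of Dbp in these shares was not tested.

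Sgpp1 made up 68.0% ± 1.12 of the S1p phosphatase transcripts in wt and 69.5% ± 2.74 in the libraries labelled S1pr2 null, with overlapping libraries. Its share was 53.0% ± 1.599 in control, 66.3% ± 0.697 in JTE and 68.6% ± 1.13 in JTE with CTGF. Control stood apart from the other 4 groups. Plpp1 made up 33.8% ± 0.434 of the ecto-phosphatase transcripts in wt, 36.0% ± 0.432 in the libraries labelled S1pr2 null, 50.6% ± 2.31 in control, 39.3% ± 1.26 in JTE and 51.2% ± 2.82 in JTE with CTGF. JTE stood below control, and JTE with CTGF overlapped with control.

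**Figure D5:**
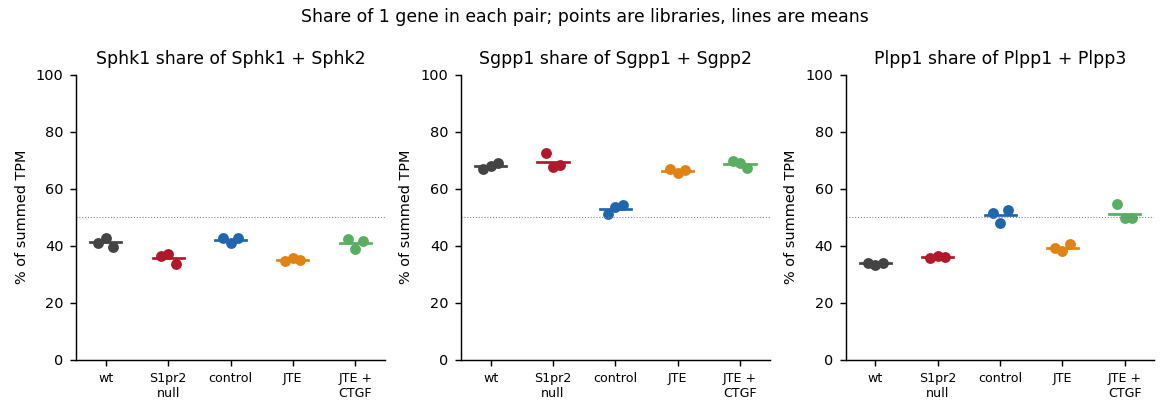
Share of 1 gene in each pair as a percentage of the summed TPM, by library (points) and group mean (lines), with a dotted line at 50%. The Sgpp1 share is near 53.0% in control and 65.5% or more in every other library, and the Plpp1 share runs from 48.0% to 54.5% in control and JTE with CTGF and is lower elsewhere.

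The protein-coding genes whose log2 CPM (counts scaled to library size) followed each member most closely over the 15 libraries were listed as a description. These points share their group, so that the Pearson coefficient includes the differences between groups, and no p-value is given. Sgpp2 lay closest to Pcsk1 (0.979), the prohormone convertase of endocrine granules, to Adgrg1 (0.977) and to Slc30a8 (0.973), the zinc carrier of insulin granules. Spns2 lay closest to the amino acid carrier Slc38a5 (0.960), to Rnpep (0.955) and to the Notch ligand Dll1 (0.954), and Dll1 was also among its nearest genes after the group means were subtracted (0.899). Enpp2 lay closest to Gp2 (0.981), a membrane protein of zymogen granules, to Maff (0.974) and to Aplp2 (0.974). After the group means were subtracted, none of these nearest genes of Sgpp2 and Enpp2 recurred. Those of Sgpp2 were then Ptgr1 (0.952), March8 (0.915) and Tbc1d2 (0.874). Those of Enpp2 were then Cstb (0.876), Eif2s2 (0.848) and Ppp2r2b (0.844). Of the others, the nearest genes were Stard10 for Sphk1 (0.957), Tmem19 for Sphk2 (0.961), Washc2 for Sgpl1 (0.988), Tmem184b for Plpp1 (0.961) and Pknox1 for Plpp3 (0.917). None is given for Mfsd2b, which passed the filter on low counts only through the fresh groups.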

How the data were processed

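Poly(A) RNA of 15 strand-specific libraries was sequenced as single-end reads. The authors aligned the reads to mm10 with GSNAP and deposited raw read counts per gene, made with featureCounts 1.4.6 from uniquely aligned reads and an Ensembl annotation. No libraries were pooled after sequencing, and whether counting used the strand was not stated. Every column was mapped to 1 sample by its title. Symbols came from GENCODE M21 for 24750 of 25292 genes (97.9%), and coordinates are the exon span in the count table.

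A single edgeR 4.0.16 model (R 4.3.3) was fitted to all 15 libraries, with TMM factors, the filterByExpr filter and a coefficient for each group, and tested by quasi-likelihood F. Benjamini-Hochberg adjustment ran over 16245 genes, and a gene was called at an adjusted p below 0.05. The SE is the log2 fold change divided by the square root of F. TPM used the gene lengths of the count table. Libraries were said not to overlap where every one of a group lay on one side of the other group.

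The genes and lists were chosen with earlier results of these data known. From each list of neighbours at most 4 genes per comparison were open to naming, those with the largest change among called genes with a group mean above 100 normalised reads, and nearest genes were protein-coding with a mean above 100. The nearest gene of Sgpp1 is not reported here. Alternatives were DESeq2 1.42.0, RLE and upper-quartile factors, no filter, the libraries of a comparison alone, a replicate block, leaving out each library, the criterion of the study and, chosen after seeing the data, total counts and TPM ratios. The test was tried on simulated counts. Total counts per library were 11402804 to 13828737, and the biological coefficient of variation was 7.30%, so replicate spread limits well-expressed genes and counting error limits genes of few reads.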

Additional observations from a re-analysis of the deposited data

Results flagged for a closer look

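No group could be searched by a rule for a single library far from the rest, since each holds 3 libraries. Of all libraries, JTE 3 differed most from the others of its own group. The results listed here are those where the response to JTE and the response to the genotype differed by the interaction test of edgeR. The differences, JTE response minus genotype response, were 0.94 ± 0.08 (SE, adjusted p = 2.08e-07 by edgeR) for Sgpp1, 0.48 ± 0.09 (SE, adjusted p = 5.28e-04 by edgeR) for Plpp3 and 0.31 ± 0.09 (SE, adjusted p = 0.0119 by edgeR) for Sphk2. They were 0.48 ± 0.16 (SE, adjusted p = 0.0227 by edgeR) for Enpp2, −0.31 ± 0.10 (SE, adjusted p = 0.0193 by edgeR) for Plpp1 and −0.50 ± 0.18 (SE, adjusted p = 0.0354 by edgeR) for Spns2. For Sgpp1 every library moved one way with the genotype and the other way with JTE, whereas Spns2 had the same sign in both responses. The calls of Enpp2, Plpp1 and Spns2 each depended on single libraries. Rpl18, which overlaps exon bases of Sphk2, differed in the same direction as Sphk2, and its part in that value was not tested.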

How the results depend on the processing

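Of the log2 fold changes recomputed under other settings, 1280 were counted as unchanged, 37 no longer passed, 12 newly passed and 22 changed sign. The tested values among the 1280 kept their direction and side of the threshold. TPM ratios have no test, and 32 of the 1280 are TPM ratios within the SE of the fitted value. For TPM ratios a change of sign was counted only where the fit called the gene. A further 26 TPM ratios moved by more than that SE. Among counts and orders 134 stayed and 9 moved. Of those that stayed, 5 are the orders by scaled reads per kilobase, which could hardly move by design. The counts for control against wt among them include Mfsd2b. Sphk1 in JTE against control was −0.0204 with RLE factors, −0.0346 with upper-quartile factors, −0.0144 with total counts, −0.0186 with DESeq2, −0.00721 with the 6 libraries alone and −0.000663 with the replicate block. As TPM ratios in control against wt, Sphk1 was −0.125 and Sphk2 −0.182, both above the median of all genes on that scale, −0.37, so that relative to it neither changed sign. Leaving out 1 library at a time gave, for the values that changed sign, −0.362 to 0.262 (Mfsd2b) and −0.0601 to 0.0342 (Plpp3) for the genotype, −0.076 to 0.00156 (Spns2) for control against wt, −0.0646 to 0.0859 (Sphk1) and −0.95 to 0.0837 (Mfsd2b) for JTE, −0.0892 to 0.0729 (Sgpl1) and −0.0977 to 0.211 (Spns2) for CTGF added to JTE, and −0.0382 to 0.0802 (Sgpl1) and −1.01 to 0.0439 (Mfsd2b) for the interaction.

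The number of genes called for the genotype was 5 with its 6 libraries alone. By the criterion of the study the numbers of genes were 0 for the genotype, 1 for control against wt, 1 for JTE, 1 for JTE with CTGF against control, 0 for CTGF added to JTE and 1 for the interaction. At an edgeR adjusted p below 0.05 the numbers without 1 library ranged from 3 to 5 for the genotype and from 7 to 8 for JTE. They ranged from 7 to 9 for JTE with CTGF against control. For CTGF added to JTE the range was 2 to 3, and for the interaction 3 to 7. No number is given for control against wt, where Mfsd2b would be counted. For these comparisons, in the same order, the replicate block gave 3, 8, 8, 3 and 6 genes, as without it, and it changed no call. Libraries with the same number deviated together with correlations from −0.097 to 0.248, not all above 0.1, and 0 to 3 of the 6 libraries of a comparison correlated best with their own number, so the numbers were not taken to pair the libraries. Depth limits Mfsd2b in explants.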
